A study of Homo sapiens with 18 samples.

Results

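Pair 2 sets 1 tetraploid clone, 4N-2, against 1 diploid clone, 2N-2, of RPE1, an immortalised human line from the retinal pigment epithelium. Its members are the genes above 0 in at least 3 of the 6 deposited libraries of these clones, which gave 31779 of the 57773 listed genes. Each clone had 3 libraries, A, B and C, of polyadenylated RNA made with a stranded kit. Both clones descend from cells treated with the Aurora kinase inhibitor ZM447439 at 2.5 uM over 72 h, then grown for some weeks and seeded as single cells in multiwell plates, with DNA content read by flow cytometry. The diploid clone is therefore a drug-exposed sister from the same plates and not an untreated line, and both clones carry a further step, a Hoechst 33342 stain before they were cloned again. The same series holds 4N-1 with 2N-1 (pair 1) and 4N-3 with 2N-3 (pair 3), which are used here only to ask what differs in pair 2.

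Aurora kinases drive chromosome alignment and cytokinesis, and cells in which they are blocked can leave mitosis undivided with a doubled genome. Cells that double their genome often activate the transcription factor p53, which induces the cell-cycle inhibitor p21, and clones that go on dividing have passed this barrier in some way. Cholesterol synthesis is controlled by SREBP transcription factors, which are cut and enter the nucleus when membrane sterol is low.

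Levels are reads per M (M, mega), which are the whole reads of a gene in a library, recovered from the deposited values, over the library's divisor. They are relative to the library as a whole, so fewer transcripts per cell and fewer cells carrying a transcript cannot be told apart, and an equal change of all transcripts would not be seen. The 6 libraries held 39.4 to 45.1 M reads in genes in 4N-2 and 44.4 to 54.4 M in 2N-2. Changes are log2 values of 4N-2 over 2N-2 with their standard error (SE), and ± gives the SD of the 3 libraries of a clone. A gene rose or fell where its Benjamini-Hochberg adjusted p in limma passed 0.05, and it was called where it also changed by 2-fold or more. Since each ploidy is 1 clone here, and A, B and C are libraries of that clone, the tests are about these 2 clones and not about ploidy.

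Of the members, 22146 had 10 or more reads in at least 3 of the 6 libraries and were tested. A gene near 0 in 1 clone passes this minimum only through the other clone, which fixes the direction of its change. The other 9633 reached at most 36 reads in any of the 6 libraries and are described by no test. Among tested genes 4657 rose (21%) and 4841 fell (21.9%), with a median change of -0.01. The calls were 1409 higher (6.36%) and 1489 lower (6.72%) in 4N-2, of which 723 changed over 4-fold and 91 over 16-fold. Over the same genes, which were chosen by their reads in pair 2, pair 1 gave 919 calls and pair 3 gave 490. Genes detected only in the other pairs are not in these counts. The change of pair 2 minus the mean change of pairs 1 and 3, tested as a contrast of its own, was called for 3382 genes (15.3%), 1618 above and 1764 below 0. At an adjusted p below 0.05 without the fold, this contrast passed above 0 for 19% and below 0 for 20.5% of tested genes.

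The mean of 4N-2 lay outside the range of the 4 clones of the other pairs, while 2N-2 lay within it, for 1788 of the called genes (61.7%). The reverse, 2N-2 outside and 4N-2 within, held for 91 (3.14%). Both clones lay outside for 961 genes (33.2%), and neither for 58 (2.0%). Over all tested genes 4N-2 alone lay outside for 45.7%, 2N-2 alone for 7.07%, both for 19.4% and neither for 27.8%. By this measure most calls of the pair were genes for which 4N-2, not 2N-2, stood away from the other clones.

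Genes of chromosome 1 were lower in 4N-2 along the whole chromosome. Among genes with a mean of 1 read per M or more over the 2 clones, the median change was -0.26 for the 1595 genes of chromosome 1, and between 0.00 and 0.11 for each of the other chromosomes. In windows of 40 genes in gene order, all 39 windows of chromosome 1 had a median below 0, with a lowest of -0.43, a median of -0.27 and a highest of -0.01. Of the 355 windows elsewhere 126 were below 0, and 2 lay below the median window of chromosome 1.

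The shift was in every library of 4N-2 and in no other clone. Relative to the mean of the 4 clones of the other pairs, and to the genes of all other chromosomes in the same library, the median of chromosome 1 was offset by -0.295 ± 0.0123 (SD, n = 3) in 4N-2 and by -0.00209 ± 0.00745 (SD, n = 3) in 2N-2. The 3 libraries of 4N-2 lay between -0.31 and -0.28, the 3 of 2N-2 between -0.01 and 0.003, and the libraries did not overlap. An exact two-sided permutation test gave p = 0.1, the smallest that 3 against 3 can give. This outcome was fixed once the libraries did not overlap, and chromosome 1 was picked from these same values. The test therefore adds no support. The mean offset of the other 4 clones was between -0.0176 and 0.0153, and chromosome 1 had a median change of 0.00 in pair 1 and 0.01 in pair 3. Of the 2044 tested genes of chromosome 1, 232 rose (11.4%) and 791 fell (38.7%), against 22% and 20.1% of the 20102 others. Calls on chromosome 1 were 89 higher and 200 lower, together 14.1% of its tested genes, beside 13.1% of all tested genes. DNA was not analysed here, and the part of this offset in the changes of single genes on chromosome 1 was not tested.

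**Figure D1:**
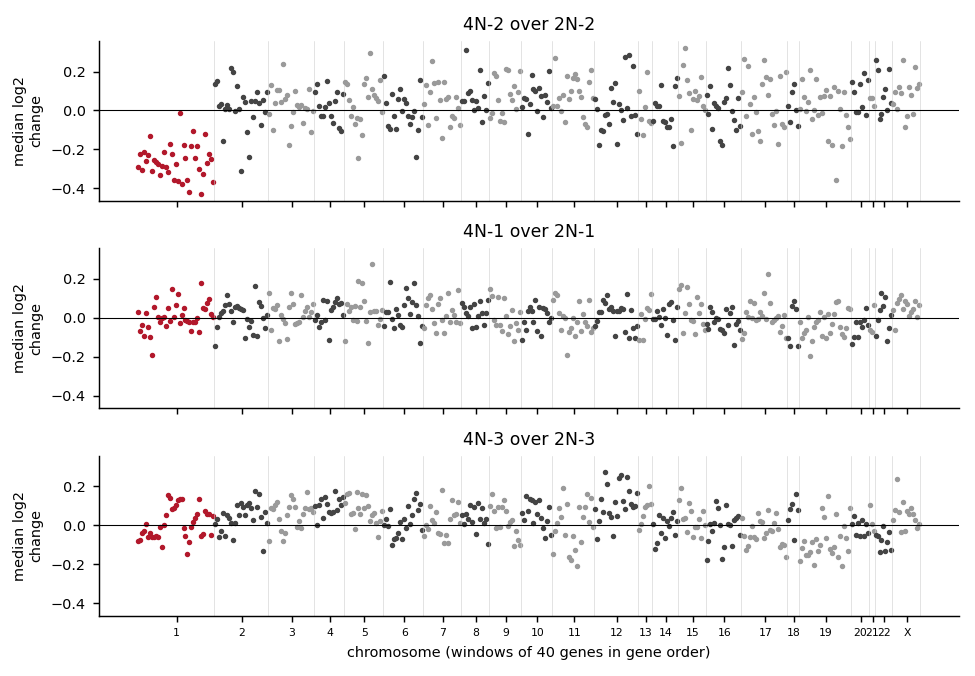
Median log2 change in windows of 40 genes, in gene order along each chromosome, for 4N-2 over 2N-2 (top), 4N-1 over 2N-1 and 4N-3 over 2N-3. The windows of chromosome 1 (red) lie below 0 in 4N-2 over 2N-2, with a median window of -0.27, and scatter around 0 in the other pairs.

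Some genes were at or near 0 reads in one clone of the pair and well detected in the other. By the rule of 3 or fewer reads summed over the 3 libraries of one clone and 100 or more in the other, 26 genes were detected in 4N-2 and not in 2N-2, of which 18 are protein coding and 15 had 0 reads in 2N-2. In the other direction there were 12 genes, 2 of them at 0 reads in 4N-2. The most abundant was CADM1 (ENSG00000182985, chromosome 11, 115169218 to 115504957 in GRCh38), an immunoglobulin-like adhesion molecule, with 106, 96.1 and 83.7 reads per M in libraries A, B and C of 4N-2 and 0 in each library of 2N-2. All 3 libraries of 4N-2 were high, and the sum of 11743 reads against 0 makes the level at least 4730-fold higher against a floor of 3 reads over the clone. The mean was 0.143 or less in the 4 clones of the other pairs.

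TBX3, a T-box transcription factor of limb and mammary development, had 18.4, 16.4 and 13.7 reads per M in 4N-2, against 0.0201, 0 and 0 in 2N-2. These are 1992 reads against 1, a ratio of 2407 with a 95% exact interval of 432 to 95130. PAGE1, a gene of the cancer-testis family, had 6.39, 8.23 and 8.70 reads per M in 4N-2 and 0 in each library of 2N-2, at least 390-fold higher, with 0 or 1 read in each other clone. Both genes were thus high in 4N-2 and near the floor in the 5 other clones, save for 28 reads of TBX3 in 2N-3.

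GYPC, the gene of the membrane protein glycophorin C, had 3569 reads in 4N-2 and 3 in 2N-2, a ratio of 1438 (492 to 6975). FAM84A had 2683 reads in 4N-2 and 0 in 2N-2, at least 1081-fold higher, and 27 to 303 in the other clones. The reads given for FAM84A, CADM1, EYA1, SNX10, CD101 and HOXA2 are the smallest whole solution and may be too few by a whole factor. GABRE, a GABA receptor subunit, had 1192 reads in 4N-2 and 3 in 2N-2, a ratio of 480 (164 to 2332). ADAMTS16, a secreted metalloprotease, had 618 reads in 4N-2 and 1 in 2N-2, a ratio of 747 (134 to 29550). In contrast to CADM1, ADAMTS16 was also detected in the other clones, with 69 to 687 reads. CCND2, which encodes cyclin D2, had 21.6, 24.6 and 18.8 reads per M in 4N-2 and 0.0201, 0.0183 and 0 in 2N-2, and was detected in 4N-1 and 4N-3 as well. Of the 26 genes, 9 had 3 or fewer reads in each of the 4 other clones.

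The genes detected in 2N-2 and not in 4N-2 were of lower abundance, with at most 540 reads. ZNF354C, a zinc-finger gene, had 0, 0.0251 and 0 reads per M in 4N-2 and 4.01, 3.38 and 3.44 in 2N-2, and 577 to 978 reads in each of the other 4 clones. GYPE and CD101 were likewise on in all 4 other clones, with 278 to 330 and 111 to 171 reads. These 3 genes were thus at 1 or 2 reads in 4N-2 and present in the 5 other clones. EYA1, a developmental phosphatase, had 1 read in 4N-2 and 286 in 2N-2. BST2 (tetherin, an antiviral membrane protein) had 2 in 4N-2 and 148 in 2N-2, and P2RX1 (an ATP-gated channel) had 3 in 4N-2 and 145 in 2N-2. SNX10, a sorting nexin, had 2 reads in 4N-2 and 132 in 2N-2. HOXC4 had 3 reads in 4N-2 and 134 in 2N-2, and it overlaps on the same strand with HOXC6, which had 53 reads in 4N-2 and 562 in 2N-2. Intervals and floors here cover counting error only. The sources do not say whether reads were counted by strand, so reads in overlaps, such as that of CCND2 with CCND2-AS1, may belong to either gene.

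**Figure D2:**
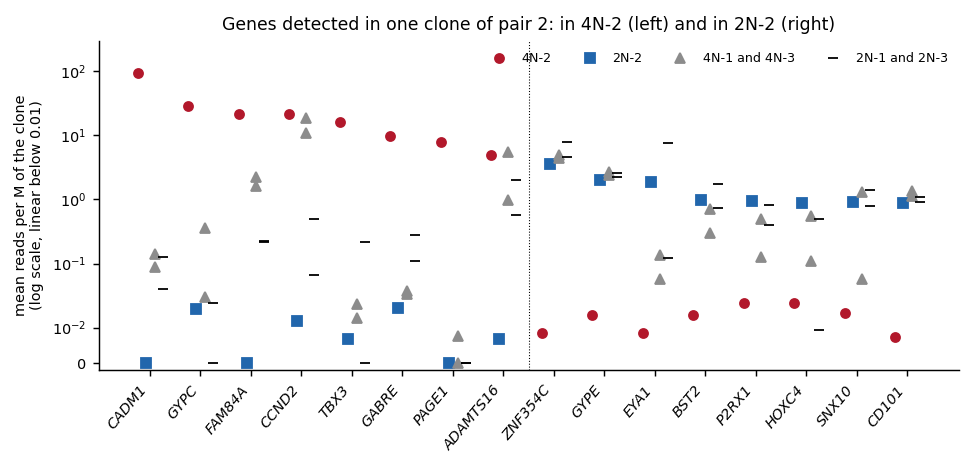
Mean reads per M in each of the 6 clones for the 8 protein-coding genes with the most reads that were detected in 4N-2 and not in 2N-2 (left of the dotted line) and for the 8 detected in 2N-2 and not in 4N-2 (right), on an axis that is logarithmic above 0.01 and linear below. CADM1, GYPC, TBX3, GABRE and PAGE1 stand alone in 4N-2, whereas CCND2 is also high in 4N-1 and 4N-3.

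Among genes with at least 1 read per M in both clones, the largest rise was that of GFRA1 (ENSG00000151892, chromosome 10, 116056925 to 116273467), a receptor of glial cell line-derived neurotrophic factor. It had 36.6, 36.1 and 35.2 reads per M in 4N-2 and 1.37, 0.803 and 1.06 in 2N-2, a 33.4-fold difference of means (4.96, SE 0.22, adjusted p = 2.09e-11). The libraries within each clone were close together and far from those of the other clone. FLRT2, an adhesion and guidance protein, averaged 41.9 ± 2.92 reads per M in 4N-2 and 1.66 ± 0.07 in 2N-2 (4.58, SE 0.18). ZNF185, an actin-associated LIM protein, averaged 76.1 ± 5.66 in 4N-2 and 3.36 ± 0.302 in 2N-2 (4.46, SE 0.14). FHL1, another LIM protein, averaged 23.9 ± 1.58 in 4N-2 and 1.03 ± 0.296 in 2N-2 (4.43, SE 0.25). Further rises of this rank were those of SPATA18 (4.19), G0S2 (4.17), VSIR, an immune checkpoint ligand (3.78), SLC25A27, a mitochondrial carrier (3.73), and INPP5D, an inositol phosphatase (3.73).

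The largest fall was that of ABCC3 (ENSG00000108846, chromosome 17, 50634777 to 50692252), an export pump of organic anions. It had 1.42, 1.18 and 1.01 reads per M in 4N-2 and 29, 36.1 and 23.7 in 2N-2, 24.6-fold lower in 4N-2 (-4.50, SE 0.25, adjusted p = 2.55e-10). No library of 4N-2 came near the lowest of 2N-2. The lipid transporter family members ABCA6 (-3.61, SE 0.35) and ABCA9 (-3.30, SE 0.41), also on chromosome 17, fell as well. Both were higher in 2N-2 than in any other clone, with ABCA9 at 15.8 ± 2.85 reads per M in 2N-2 and at most 4.67 elsewhere. The orphan receptor GPRC5C fell by 3.6 and the glypican GPC6 by 3.27. GPC6 averaged 10.7 ± 0.26 reads per M in 4N-2 and 104 ± 8.94 in 2N-2. The remaining falls of this rank, in EGR1, FOS, COL11A1, COL4A4 and IGFBP5, are given with their groups.

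**Figure D3:**
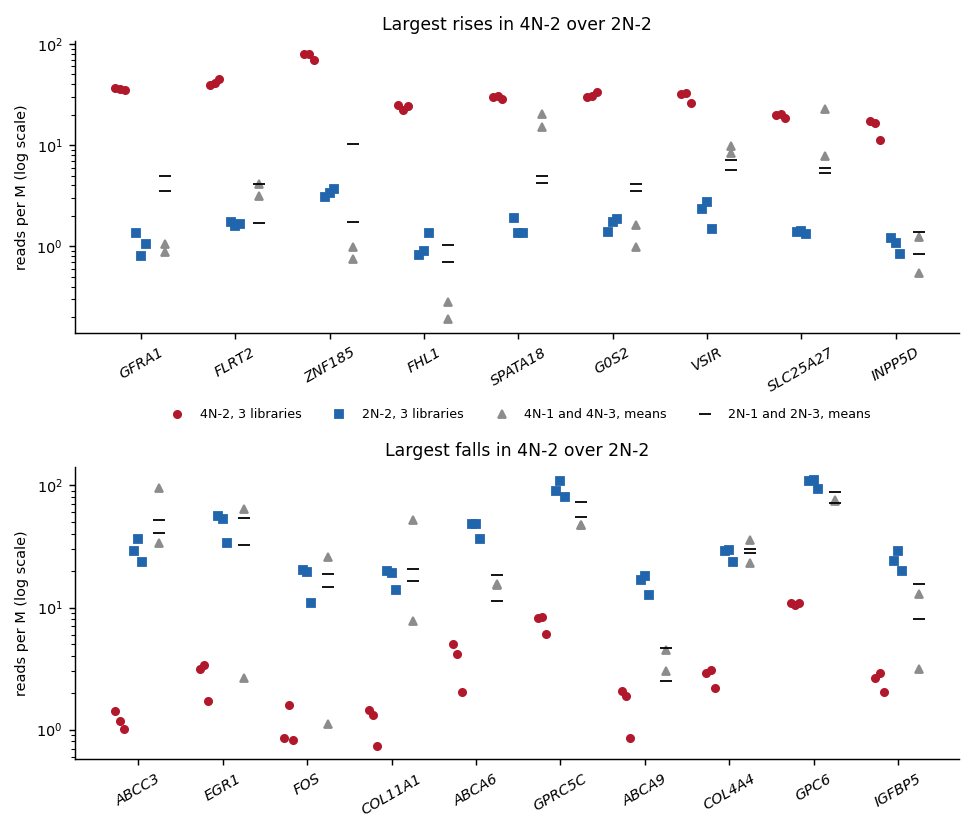
Reads per M, on a logarithmic axis, of 9 of the 10 genes with the largest rise (top) and of the 10 with the largest fall (bottom) among called genes with a mean of at least 1 read per M in both clones. Circles are the 3 libraries of 4N-2, squares those of 2N-2, and triangles and dashes the means of the other tetraploid and diploid clones. For GFRA1 and ABCC3 the 3 libraries of 4N-2 lie apart from all other clones.

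Targets of p53 were higher in 4N-2. Of the 32 on the list, all of them tested, 26 rose (81.25%), 1 fell (3.125%) and 5 did not pass. Over all tested genes 21% rose and 21.9% fell. The list had a median change of 1.09, beside -0.01 over all tested genes. CDKN1A, which encodes p21 (ENSG00000124762, chromosome 6, 36676460 to 36687339), had 508, 521 and 550 reads per M in 4N-2 and 153, 162 and 142 in 2N-2 (1.79, SE 0.09, adjusted p = 1.43e-10). MDM2, the ubiquitin ligase that degrades p53, averaged 258 ± 16.1 in 4N-2 and 108 ± 5.91 in 2N-2 (1.25, SE 0.07). All 3 libraries of 4N-2 exceeded all 3 of 2N-2 for both genes.

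The largest rises of the list were SPATA18, a mitochondrial quality control gene, at 29.6 ± 1.22 reads per M in 4N-2 and 1.54 ± 0.308 in 2N-2 (4.19, SE 0.15), and BTG2, an antiproliferative gene, at 37.2 ± 2.78 in 4N-2 and 3.74 ± 0.247 in 2N-2 (3.28, SE 0.11). The single fall was that of the kinase gene PLK2 (-0.85, SE 0.10), at 511 ± 18.0 in 4N-2 and 920 ± 49.0 in 2N-2. In the contrast with the other pairs, 19 of the 32 targets passed above 0 and 1 below, beside 19% and 20.5% of all tested genes. The medians of the list were 1.09 in pair 2, 0.45 in pair 1 and 0.54 in pair 3.

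Mitosis genes were also higher in 4N-2. Of 36, 25 rose (69.4%) and none fell, with a median of 0.53, beside 21% and 21.9% of all tested genes. Only 2 of the 36, CDK1 and TOP2A, were called, where 6.36% of all tested genes were called higher. Without library B of 2N-2 the number that rose was 16. CDK1, the mitotic kinase, had 138, 154 and 184 reads per M in 4N-2 and 75.6, 59.0 and 85.7 in 2N-2 (1.12, SE 0.18, adjusted p = 9.54e-05). TOP2A, a DNA topoisomerase of mitotic chromosomes, averaged 597 ± 27.9 in 4N-2 and 299 ± 43.5 in 2N-2 (1.01, SE 0.19). The libraries of the clones did not overlap for either gene. In pair 1 the median of the same list was -1.36 and 35 members fell, and in pair 3 no member passed. The contrast of pair 2 with the other pairs passed above 0 for 35 of the 36, beside 19% of all tested genes.

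Of 36 genes of DNA replication and S phase 13 rose (36.1%) and 1 fell (2.78%), with a median of 0.40. Over all tested genes 21% rose and 21.9% fell. The number that rose was 6 without library C of 4N-2 or B of 2N-2, 8 without A of 2N-2, and 21 in a fit of the 6 libraries of the pair alone. PCNA, the sliding clamp of DNA polymerase, averaged 281 ± 49.9 reads per M in 4N-2 and 128 ± 21.5 in 2N-2 (1.14, SE 0.19), and TYMS, thymidylate synthase, 200 ± 28.9 in 4N-2 and 98.0 ± 15.2 in 2N-2 (1.03, SE 0.18). The fall was that of ORC1, of the origin recognition complex (-0.83, SE 0.24, adjusted p = 0.00889), which lies on chromosome 1. In both clones library C had the highest level of these 3 genes, and the fall of ORC1 no longer passed without library C of 2N-2. Among 18 G1 cyclins, CDKs and CDK inhibitors 7 rose (38.9%) and 2 fell (11.1%), the falls being 5 in a fit of the pair alone. CCND1, which encodes cyclin D1, had 770, 744 and 784 reads per M in 4N-2 and 407, 391 and 463 in 2N-2 (0.87, SE 0.14). The inhibitors CDKN2B (p15) and CDKN1B (p27) fell by 0.98 and 0.67. Of 27 centrosome and centriole genes 8 rose (29.6%) and 2 fell (7.41%), none by 2-fold. CETN2, a centrin, rose by 0.89 and CCP110, a centriole cap protein, by 0.87, while CEP57 fell by 0.37 and CEP63 by 0.25. The fall of CEP63 no longer passed without library C of 4N-2.

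Cholesterol synthesis and uptake was lower in 4N-2 along nearly its whole length. Among its 24 tested genes 22 fell (91.7%), 16 of them by 2-fold or more, and none rose. Over all tested genes 21.9% fell, 6.72% were called lower and 21% rose. The median change of the 24 genes was -1.28. It was -0.49 in pair 1, where 15 fell and 1 rose, and -0.15 in pair 3, where 3 fell and none rose. HMGCS1, the synthase that makes HMG-CoA (ENSG00000112972, chromosome 5, 43289395 to 43313512), had 56.8, 59.2 and 58.7 reads per M in 4N-2 and 340, 307 and 317 in 2N-2, 5.51-fold lower (-2.46, SE 0.12, adjusted p = 7.82e-11). MVD, the decarboxylase of mevalonate diphosphate, averaged 14.7 ± 1.01 in 4N-2 and 77.7 ± 6.84 in 2N-2 (-2.40, SE 0.18). No library of 4N-2 came near the lowest of 2N-2 for either enzyme.

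INSIG1, which holds the SREBP complex in the endoplasmic reticulum and is itself an SREBP target, had 72.1, 67.5 and 66.5 reads per M in 4N-2 and 350, 332 and 316 in 2N-2 (-2.27, SE 0.12). The 2 tested members that did not pass, named after their values were seen, were TM7SF2, a sterol reductase (0.01, adjusted p = 0.981), and EBP, a sterol isomerase (0.34, adjusted p = 0.0836). The contrast with the other pairs passed below 0 for 21 of the 24 genes and above 0 for none, beside 20.5% and 19% of all tested genes. The 4 members on chromosome 1 fell, and the median over the 20 members on other chromosomes was -1.28.

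The RefSeq promoters (GRCh38.p14) of the list are shown for HMGCS1, MVD and INSIG1, the 3 genes with the largest fall, and for SREBF2, which encodes SREBP2 (-0.75) and is the one gene of the list with a sterol element. That of HMGCS1 belongs to 1 of its 2 RefSeq starts. The sequences run from 250 bases before the RefSeq start to the first base before the GENCODE gene, 5′ to 3′ on the strand of the gene. Capitals mark the CCAAT box bound by the factor NF-Y, as CCAAT or its reverse complement ATTGG, and, in SREBF2, the sterol element TCACNCCAC bound by SREBP.
HMGCS1, chr5:43313513-43313662, minus strand: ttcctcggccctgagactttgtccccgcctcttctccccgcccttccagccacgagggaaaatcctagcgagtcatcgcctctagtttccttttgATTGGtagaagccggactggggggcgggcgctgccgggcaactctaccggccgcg
MVD, chr16:88663162-88663341, minus strand: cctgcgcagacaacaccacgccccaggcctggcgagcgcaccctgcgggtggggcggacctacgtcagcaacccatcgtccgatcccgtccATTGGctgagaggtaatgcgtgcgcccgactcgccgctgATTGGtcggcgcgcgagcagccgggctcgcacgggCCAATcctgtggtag
INSIG1, chr7:155297628-155297775, plus strand: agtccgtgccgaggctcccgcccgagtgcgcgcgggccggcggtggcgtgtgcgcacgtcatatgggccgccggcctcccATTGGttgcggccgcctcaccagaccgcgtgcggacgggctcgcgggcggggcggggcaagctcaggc
SREBF2, chr22:41832855-41833078, plus strand: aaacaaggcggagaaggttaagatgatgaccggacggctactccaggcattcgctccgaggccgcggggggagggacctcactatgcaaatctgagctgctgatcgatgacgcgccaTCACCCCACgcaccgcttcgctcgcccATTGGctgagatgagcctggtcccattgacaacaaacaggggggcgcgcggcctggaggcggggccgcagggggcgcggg

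NF-Y is known to act with SREBP at sterol-responsive promoters. Of the 26 genes of the list 19 had a RefSeq promoter, 24 promoters in all. In the 250 bases before the start, on either strand, 19 of the 24 (79.2%) held a CCAAT box, beside 11240 of all 35116 promoters (32.0%). By gene, 17 of 19 had one, among them EBP and TM7SF2, which did not fall. The sterol element was in 1 of the 24, that of SREBF2, and in 0.883% of all promoters. The motifs do not overlap in the SREBF2 promoter. A match of letters is a description and not evidence of binding.

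**Figure D4:**
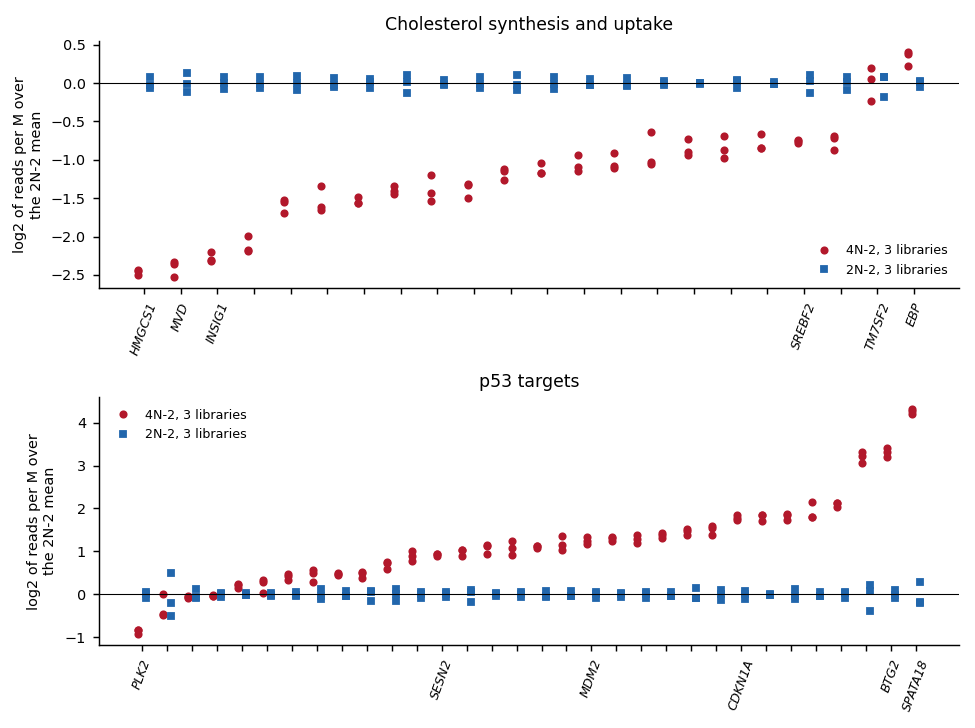
Reads per M of each library over the mean of 2N-2, on a log2 scale, for 22 of the 24 tested genes of cholesterol synthesis and uptake (top) and the 32 p53 targets (bottom), ordered by the change in 4N-2, with names on those described in the text. Circles are libraries of 4N-2 and squares those of 2N-2. All cholesterol genes shown but TM7SF2 and EBP lie below the 2N-2 mean in 4N-2, and all but a few p53 targets lie above it.

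Other lipid genes were split. Of 10 genes of cholesterol export and targets of the liver X receptors 6 fell (60%) and none rose. Among them were APOE (-2.44, SE 0.30) and SREBF1, which encodes SREBP1 (-1.54, SE 0.16). Of 27 genes of fatty acid synthesis, desaturation and lipolysis 12 rose (44.4%) and 11 fell (40.7%), beside 21% and 21.9% of all tested genes. SCD, stearoyl-CoA desaturase, had 434, 426 and 387 reads per M in 4N-2, and averaged 2374 ± 272 in 2N-2 (-2.51, SE 0.19). GPAM, which starts glycerolipid synthesis, averaged 51.0 ± 6.34 in 4N-2 and 293 ± 40.5 in 2N-2 (-2.52, SE 0.23). On the other side G0S2, an inhibitor of the lipase that breaks down stored fat, was higher, at 31.4 ± 1.81 in 4N-2 and 1.66 ± 0.241 in 2N-2 (4.17, SE 0.25), and DGAT2, which makes triglyceride, rose by 1.32. The drug efflux transporter ABCG2 had 2.18, 2.13 and 2.54 reads per M in 4N-2 and 5.70, 5.42 and 6.80 in 2N-2 (-1.35, SE 0.13).

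Collagen chains fell more often than they rose in 4N-2. Of 24 collagen chains tested 14 fell (58.3%) and 4 rose (16.7%), beside 21.9% and 21% of all tested genes. Their median was -0.65, beside medians of 0.41 in pair 1 and 0.23 in pair 3. The contrast passed below 0 for 15 of the 24, beside 20.5% of all tested genes. COL4A3 and COL4A4, neighbouring chains of basement membrane, fell by 4.28 and 3.30. COL4A3 had 0.786, 0.577 and 0.493 reads per M in 4N-2 and 14.1, 16.3 and 11.2 in 2N-2. COL11A1, a fibrillar chain encoded on chromosome 1, fell by 3.83. COL17A1, of hemidesmosomes, and COL6A1 rose by 1.02 and 0.95.

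Of 37 matrix glycoproteins, proteoglycans and crosslinkers 18 fell (48.65%) and 8 rose (21.6%), beside 21.9% and 21% of all tested genes. LUM, which encodes the proteoglycan lumican (ENSG00000139329, chromosome 12, 91102629 to 91111831), had 0.101, 0.0502 and 0 reads per M in 4N-2 and 44.2, 47.5 and 39.7 in 2N-2, 867-fold lower (-8.24, SE 0.21). LUM passed the read minimum only through 2N-2, so its fall was fixed by the filter and its test adds no support. It was at 25.1 to 127 in the other clones, so that 4N-2 was the clone without it. POSTN, periostin, averaged 0.129 ± 0.0764 in 4N-2 and 5.21 ± 0.342 in 2N-2 (-4.59, SE 0.19). POSTN likewise passed the minimum only through 2N-2, and both genes are among the 18 that fell. PRELP, a small proteoglycan of basement membranes, and LAMB3, a laminin chain, rose by 2.85 and 1.62, and both lie on chromosome 1.

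Matrix proteases and their inhibitors rose more often, with 11 of 25 up (44%) and 6 down (24%), beside 21% and 21.9% of all tested genes. TIMP3, an inhibitor of metalloproteases known for its mutation in a dystrophy of the retinal pigment epithelium (ENSG00000100234, chromosome 22, 32801701 to 32863043), had 401, 381 and 281 reads per M in 4N-2 and 0.0806, 0.0365 and 0.0883 in 2N-2, 5174-fold higher (11.04, SE 0.31). TIMP3, which is among the 11 that rose, passed the read minimum only through 4N-2. Its rise was thus fixed by the filter, and its test adds no support. The other 4 clones had means of 0.0650 to 0.377, so that TIMP3 was abundant in 4N-2 and nearly silent in the other 5. The serpin SERPINB7 rose by 3.36, and the membrane proteases MMP17 and MMP15 fell by 1.37 and 1.36. Of 19 integrin subunits 5 rose (26.3%) and 7 fell (36.8%). ITGB2, the leukocyte beta-2 chain, rose by 3.65 and ITGB4, of hemidesmosomes, by 1.54. ITGA11, a collagen receptor, averaged 36.0 ± 5.51 reads per M in 4N-2 and 211 ± 33.2 in 2N-2 (-2.55, SE 0.18), and ITGB8, which activates latent TGF-beta, fell by 2.00.

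Among 25 adhesion molecules of the CADM, IgLON, cadherin and protocadherin families 9 rose (36%) and 5 fell (20%). Over all tested genes 21% rose and 21.9% fell. After CADM1, the largest rise was that of NCAM2, at 2.95 ± 0.489 reads per M in 4N-2 and 0.0471 ± 0.0240 in 2N-2 (4.38, SE 0.27). CADM1 and NCAM2 passed the read minimum only through 4N-2, so their rise was fixed by the filter. PCDH7 averaged 10.5 ± 0.531 in 4N-2 and 55.2 ± 6.75 in 2N-2 (-2.37, SE 0.17), and CDH6 fell by 1.61. Of 36 actin cytoskeleton and smooth muscle genes 15 rose (41.7%) and 7 fell (19.4%). RHOB, a small GTPase, averaged 251 ± 10.7 in 4N-2 and 53.8 ± 1.96 in 2N-2 (2.22, SE 0.09), and FLNC, a filamin, rose by 1.76. LMOD1 and MYL9, of the contractile apparatus, fell by 1.53 and 0.92. Targets of YAP and TAZ were split, 11 of 25 up (44%) and 6 down (24%). IGFBP3 was at 2.21, AMOTL2 at 1.30, NT5E at -0.72 and PTPN14 at -0.71.

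Secreted signals changed in both directions. Of 43 receptor tyrosine kinases and ligands 15 rose (34.9%) and 15 fell (34.9%), beside 21% and 21.9% of all tested genes. FGF1, a fibroblast growth factor, had 64.2, 57.6 and 63.8 reads per M in 4N-2 and 5.2, 5.24 and 6.03 in 2N-2 (3.47, SE 0.17), and AREG, a ligand of the EGF receptor, rose by 2.75. IGFBP5 and IGFBP4, which bind insulin-like growth factors, fell by 3.21 and 2.23. Of 15 cytokines and chemokines 7 rose (46.7%) and 6 fell (40%). CCL2, which attracts monocytes (ENSG00000108691, chromosome 17, 34255218 to 34257203), had 0.811, 1.03 and 0.449 reads per M in 4N-2 and 48.1, 49.1 and 36.2 in 2N-2 (-5.74, SE 0.28). It was at 0 to 8.55 in the other clones, so that here 2N-2 stood above the rest. IL33, an alarmin, fell by 4.88, and CSF2 and CXCL8 rose by 3.62 and 2.10.

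Of 28 genes of the TGF-beta and BMP pathway 13 fell (46.4%) and 4 rose (14.3%), beside 21.9% and 21% of all tested genes. BMP4, a ligand, and FST, an inhibitor of activin, fell by 1.66 and 1.61, and ID2, a target of BMP signals, and LTBP2 rose by 1.64 and 0.81. In the Notch pathway, 8 of 20 rose (40%) and 6 fell (30%), the falls being 3 without library C of 4N-2 or B of 2N-2. The ligand DLL3 and the glycosyltransferase MFNG rose by 2.31 and 2.60. HES1, a Notch target, averaged 6.11 ± 1.92 reads per M in 4N-2 and 30.03 ± 2.75 in 2N-2 (-2.33, SE 0.17), and the ligand JAG2 fell by 0.71, a change that no longer passed without library B or C of 4N-2 or library A or B of 2N-2.

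Immediate early genes, which respond within minutes to serum or handling, were split, 9 of 27 up (33.3%) and 10 down (37%). The shares over all tested genes were 21% up and 21.9% down. EGR1 had 3.12, 3.41 and 1.71 reads per M in 4N-2 and 55.8, 52.7 and 33.5 in 2N-2 (-4.08, SE 0.29), and FOS had 0.862, 1.58 and 0.830 in 4N-2 and 20.3, 19.6 and 10.9 in 2N-2 (-3.84, SE 0.44). The clone 4N-3 was as low as 4N-2 in both, with means of 2.67 and 1.11. FOSL1 and ATF3, of the same bZIP family as FOS, rose by 1.29 and 1.95. Of 32 interferon-stimulated and antigen presentation genes 11 fell (34.4%) and 5 rose (15.6%). OAS2 and OAS1 were at -2.16 and -1.52, and ISG20 and IFI27 at 1.09 and 0.97. Without library C of 4N-2, 3 rose.

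HOX genes mark position along the body axis. Of 15 tested 9 fell (60%) and 3 rose (20%), with a median of -1.05. Over all tested genes 21.9% fell and 21% rose. Members near 0 in 4N-2 passed the read minimum only through 2N-2, so their fall was fixed by the filter, and HOXD13 passed only through 4N-2. Without library A, B or C of 2N-2, when the former drop out, 10 were tested, of which 4 fell and 3 rose. HOXA3 (ENSG00000105997, chromosome 7, 27106184 to 27152581) had 0.101, 0.126 and 0.0449 reads per M in 4N-2 and 10.2, 10.7 and 9.93 in 2N-2, 113.5-fold lower (-5.79, SE 0.21). It was at 0.110 and 0.0736 in 4N-1 and 4N-3 and at 5.08 and 4.93 in 2N-1 and 2N-3, so that the diploid clones were higher in each pair. HOXA2 had 0 reads in 4N-2 and 131 in 2N-2, at least 36.1-fold lower. The rises were led by HOXD13, with 136 reads in 4N-2 and 1 in 2N-2, a ratio of 164 (29 to 6539), and by HOXB5 (1.22). The genes of a HOX cluster overlap, so their counts are not independent.

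The labelled origin was checked against defining markers. Of 17 markers of retinal pigment epithelium 8 reached 1 read per M in either clone. RPE65, RLBP1, TYR, DCT, TTR and TRPM1 were at or near 0 in both clones, whereas the transcription factors MITF and OTX2 were present. MITF had means of 20.15 reads per M in 4N-2 and 18.4 in 2N-2, and OTX2 of 26.9 in 4N-2 and 45.0 in 2N-2 (-0.76). Of 11 tested markers 3 rose and 5 fell, where 21% of all tested genes rose and 21.9% fell. The retinol dehydrogenase gene RDH5 was at 124 in 4N-2 and 25.5 in 2N-2 (2.28). In the other direction, RDH11 was at 75.05 in 4N-2 and 117.7 in 2N-2 (-0.65). MERTK was at 1.61 in 4N-2 and 7.34 in 2N-2 (-2.12). The markers in this paragraph were named after their values were seen.

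Of markers of other cell types, those of fibroblasts summed to 1007 to 1104 reads per M in 4N-2 and 763 to 845 in 2N-2. THY1 rose by 1.47 and 6 of the 10 fell, LUM and DCN among them, where 21.9% of all tested genes fell. Blood markers summed to 133 to 149 in 4N-2 and 48.7 to 53.04 in 2N-2, nearly all from the lysosomal gene CD68, with CD3E, HBB and HBA1 at 0. Neuronal markers summed to 247 to 252 in 4N-2 and 295 to 313 in 2N-2, with STMN2 and NEFM at 0, and endothelial markers to 14.9 to 19.6 in 4N-2 and 8.87 to 10.1 in 2N-2, with CLDN5 at 0. Of the 6 endothelial markers tested ENG rose by 4.41 and TEK by 1.03, while VWF, KDR, TIE1 and ESAM did not pass. ENG alone averaged 8.4 in 4N-2 and 0.312 in 2N-2. Skeletal muscle markers summed to 2.18 to 2.58 in 4N-2 and 2.52 to 2.81 in 2N-2, and those of simple epithelium to 2.22 to 3.56 in 4N-2 and 11.1 to 15.6 in 2N-2. The simple epithelium markers MUC1 and ESRP1 fell. The part of these markers in the other changes was not tested.

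Of 9 keratins tested 5 rose (55.6%) and none fell, led by KRT15 (1.98) and KRT34 (1.35). The number that rose was 3 without library B or C of 4N-2 or A or C of 2N-2. Among 16 epithelial-mesenchymal genes 4 rose (25%) and 4 fell (25%), close to the shares of 21% and 21.9% over all tested genes. CLDN1, a tight junction claudin, rose by 2.30, and SNAI2 and SNAI1, related repressors of E-cadherin, moved apart, with SNAI2 at 1.85 and SNAI1 at -1.51. ESRP1, an epithelial splicing factor, averaged 0.0402 ± 0.0134 reads per M in 4N-2 and 1.17 ± 0.379 in 2N-2 (-3.13, SE 0.23). It passed the read minimum only through 2N-2, so its fall was fixed by the filter.

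Of 30 genes of the unfolded protein and integrated stress response 13 fell (43.3%) and 6 rose (20%). Over all tested genes 21.9% fell and 21% rose. Among the members were DDIT4 (-1.98), SDF2L1 (-0.82), ATF3 (1.95) and SESN2 (0.93). Without library B of 4N-2, 8 genes fell and SDF2L1 no longer passed. Of 24 heat shock proteins and co-chaperones 10 rose (41.7%) and 2 fell (8.33%). CRYAB, a small heat shock protein, averaged 4.64 ± 0.616 reads per M in 4N-2 and 0.243 ± 0.0640 in 2N-2 (3.80, SE 0.21), HSP90AA1 rose by 0.86, and HSPA8 and HSPH1 fell by 0.51 and 0.30. HSPH1 no longer passed without library A or B of 4N-2 or A or C of 2N-2.

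Of 24 NRF2 targets 10 fell (41.7%) and 4 rose (16.7%), beside 21.9% and 21% of all tested genes. SLC7A11, a cystine importer, was at -1.73 and the reductase genes AKR1C1 and AKR1C2 at 1.86 and 1.16. AKR1C1 and AKR1C2 are near-identical paralogs, whose reads may be split uncertainly. Of 29 genes of glycolysis and the hypoxia response 9 fell (31%) and 2 rose (6.9%), with the largest falls in 2 genes induced by hypoxia. VEGFA, the angiogenic factor, had 147, 144 and 100.8 reads per M in 4N-2 and 581, 652 and 533 in 2N-2 (-2.18, SE 0.16), and CA9, a carbonic anhydrase, fell by 3.21. HK1, a hexokinase, and EGLN3, a prolyl hydroxylase, rose by 0.45 and 0.55. Of 34 lysosome genes 19 fell (55.9%) and 6 rose (17.65%), with a median of -0.30. CTSD, the protease cathepsin D, averaged 1468 ± 136 in 4N-2 and 3649 ± 416 in 2N-2 (-1.31, SE 0.17), and GPNMB fell by 1.25. SGSH and CTSH rose by 1.48 and 0.73.

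Few genes of the housekeeping complexes passed in the fit of all 18 libraries, in which 21% of all tested genes rose and 21.9% fell. Of 37 nuclear-encoded respiratory chain genes 3 fell and 1 rose, and the 3 that fell, SDHB (-0.39) and SDHC (-0.29) among them, were the 3 tested members on chromosome 1. SDHA, a subunit of the same complex encoded on chromosome 5, rose by 0.32. SDHB had 48.5, 48.4 and 52.1 reads per M in 4N-2 and 64.5, 65.2 and 64.9 in 2N-2. Of 30 proteasome subunits 2 fell, PSMA5 (-0.64) and PSMB2 (-0.47), which are 2 of the 4 tested subunits on chromosome 1, and 1 rose, PSMD2 (0.73). Of 44 cytosolic ribosomal proteins 2 fell, RPLP0 (-0.54) and RPL23 (-0.47), and none rose. Neither lies on chromosome 1, where none of the 4 tested ribosomal proteins fell. In a fit of the 6 libraries of the pair alone, 16 respiratory chain genes rose, 4 ribosomal proteins rose and 20 fell, and 6 proteasome subunits rose and 5 fell. SDHC no longer passed without library A or B of either clone, when 1 respiratory chain gene fell, and RPL23 without any one library but C of 4N-2.

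**Figure D5:**
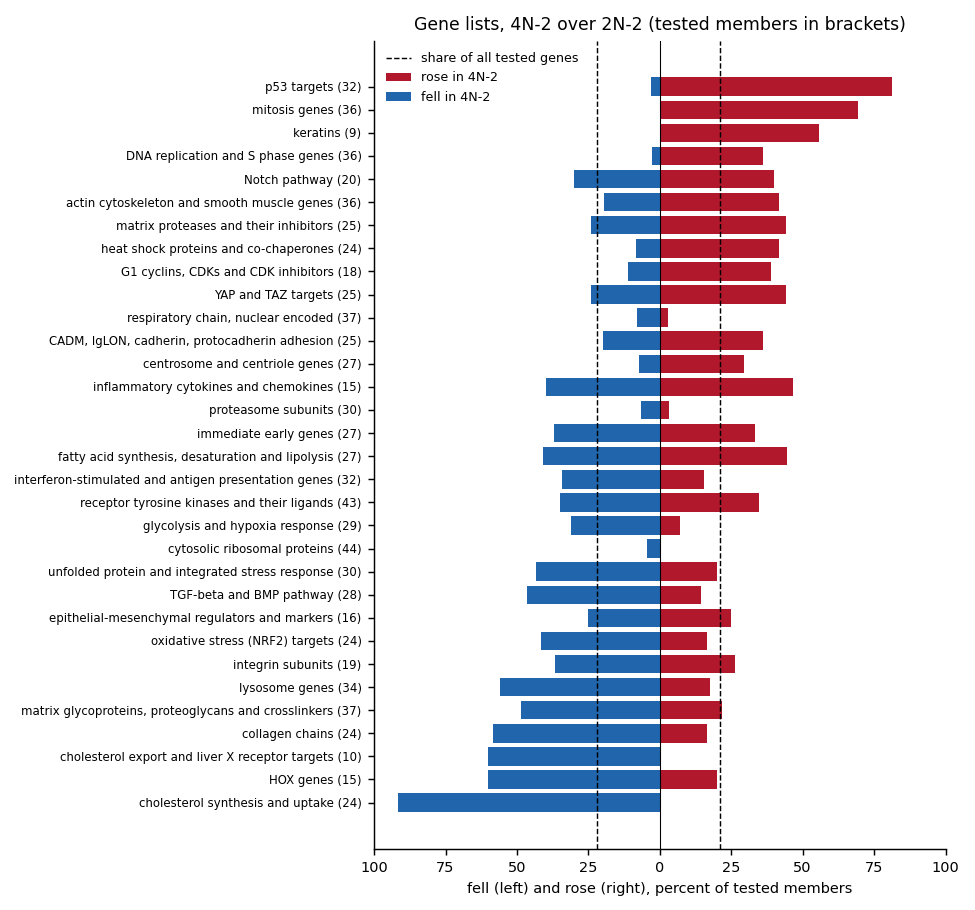
Percent of the tested members of each of 32 gene lists that fell (blue, left) or rose (red, right) in 4N-2 over 2N-2 at an adjusted p below 0.05, ordered by median change. Dashed lines mark the shares of all tested genes, 21.9% fallen and 21% risen. The p53 targets and mitosis genes lie far to the right and the cholesterol genes far to the left, whereas ribosomal, proteasome and respiratory chain genes stay inside both lines.

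The genes whose change differed most from pairs 1 and 3, among those with a mean of 1 read per M or more in both clones, included 2 that were near 0 in the other tetraploid clones. GPR143, which encodes a receptor of pigment cells (ENSG00000101850, chromosome X, 9725346 to 9786297), had 36.3, 38.1 and 40 reads per M in 4N-2 and 10.03, 11.96 and 11.04 in 2N-2 (1.79, SE 0.24). Its means were 0.0377 in 4N-1 and 30.3 in 2N-1, and 0.0746 in 4N-3 and 28.4 in 2N-3, and the difference between pair 2 and the others was 9.41 (SE 0.29, adjusted p = 3.55e-13). NUP210, a nuclear pore protein gene, fell in pair 2, at 22.3 ± 0.66 in 4N-2 and 51.9 ± 0.447 in 2N-2 (-1.21, SE 0.17). It was nearly absent from 4N-1 (0.0442, against 46.7 in 2N-1) and from 4N-3 (0.196, against 30.2 in 2N-3), and its difference was 6.29 (SE 0.21). For these genes 4N-2 was thus the tetraploid clone with the transcript.

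GFRA1 and ZNF185, which rose in pair 2, fell in the other pairs, so that their differences of 6.99 (SE 0.27) and 6.64 (SE 0.17) exceed their changes in pair 2. LRP1B, a large endocytic receptor (ENSG00000168702, chromosome 2, 140231423 to 142131701), had 1.17, 1.05 and 1.35 reads per M in 4N-2 and 8.80, 9.15 and 8.12 in 2N-2 (-2.77, SE 0.13). It rose in both other pairs, by 0.66 in pair 1 and 0.59 in pair 3, and the difference was -3.40 (SE 0.16). No library of 4N-2 came near those of 2N-2.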

How the data were processed

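Messenger RNA of RPE1 clones was sequenced from 18 libraries, 3 for each of 6 clones. Per the submitters' processing notes, reads were handled with CASAVA 1.8.2 and TopHat2, with hg19 as the build and edgeR among the tools; how the strand was used is not given in the sources used here. The authors deposited RPKM values, reads per M reads and per kilobase of gene, for 57773 genes. The lengths these imply lay within 0.5% of the genomic span for 14814 of 17191 genes over 50 reads (86.2%), introns included. The RPKM were therefore turned back into whole reads (tolerance 0.01 reads) and into reads per M with the divisors that the table implies. For 9735 genes without the GENCODE v29 length the smallest whole solution was taken, whose true reads may be a multiple of it. Symbols and GRCh38 positions came from GENCODE v29, which matched 52338 genes by identifier.

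The values log2(reads per M + 0.1) of all 18 libraries were fitted with limma 3.58.1 (R 4.3.3, trend, 12 residual degrees of freedom) with a mean per clone. Tests were two-sided with Benjamini-Hochberg adjustment over 22146 genes. Log2 changes are on that scale, which understates the changes of low genes, whereas folds are ratios of mean reads per M or, for genes on in one clone, of summed reads over the divisors. On simulated data for 4N-2 against 2N-2, run on 22146 genes with 100 changed by 2-fold and 100 by 4-fold, 99% and 100% passed, and 8 unchanged genes passed. The simulation gave all genes the same small spread between libraries and changed only genes with a mean of 1 read per M or more. Its rates therefore do not cover genes of lower level or wider spread. Named genes were, per direction, the 10 largest called changes with a mean of 1 read per M in the lower clone and libraries that do not overlap, the 8 genes on in one clone with the most reads, up to 2 passing members of each list with the largest change, the 5 largest differences from pairs 1 and 3 with that mean in both clones, and CCND2, CCND1, CDKN1A, MDM2, HMGCS1, INSIG1, SCD and ABCG2. Some genes that this rule names are not reported here. Of the list symbols 8 were not matched. Members and lists were chosen with earlier results of these data known. Figures used matplotlib 3.10.9. Replicates are labelled by a letter. The p-values rest on the spread between libraries within a clone, pooled over all 18 libraries, and not on a spread between clones. Alternatives were other pseudocounts, read minimums, scaling, RPKM itself, limma-voom, a replicate block and leaving out libraries.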

Additional observations from a re-analysis of the deposited data

Results flagged for a closer look

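A test of the difference between the change of pair 2 and the mean change of pairs 1 and 3 set apart 1618 genes above 0 and 1764 below 0, at an adjusted p below 0.05 in limma and 2-fold or more. Of the named genes chosen for this difference, those above 0 were GPR143 (9.41), GFRA1 (6.99), ZNF185 (6.64), NUP210 (6.29) and FHL1 (5.96), as log2 values. Those below 0 were ABCC3 (-4.74), COL11A1 (-3.98), ABCA6 (-3.69), ITGA11 (-3.51) and LRP1B (-3.40). NUP210 is above 0 although it fell in pair 2, because it fell further in the other pairs. Groups of 3 libraries were not tested for a library far from the others.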

How the results depend on the processing

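With a pseudocount of 0.5 the calls were 1864 in all and 895 lower, and the difference from pairs 1 and 3 was called lower for 1135 genes. On the deposited RPKM with a pseudocount of 0.5 and a minimum of 1 RPKM, which tested 8946 genes, the calls were 439 (235 higher, 204 lower), of which 418 were among the 2898, and the differences were 554 (320 higher, 234 lower). The other settings gave totals within 1.5 times of those reported. Leaving out each library in turn gave 2486 to 2708 calls (1131 to 1432 higher, 1095 to 1575 lower) and 2889 to 3225 differences (1351 to 1660 higher, 1330 to 1841 lower). Whether the letters pair the libraries was not settled. Same-letter deviations correlated at 0.03 (A), 0.14 (B) and 0.23 (C), and those of different letters at -0.20 to 0.08. Each library of 2N-2 correlated best with its own letter, while library A of 4N-2 correlated best with B of 2N-2. With the replicate block 2901 genes were called, 2897 of them among the 2898. No named change reversed its sign. Over all named genes and the settings that kept the 6 libraries of pair 2, 1415 changes stayed on their side of the threshold and 1 was lost (RPL23 in RPKM). With 1 library left out, 802 stayed and 20 were lost. The counts of gene lists moved by over 1.5 times in 11 of 320 cases, and in 32 of 384 with 1 library left out. The median of chromosome 1, recomputed under each setting after it was seen, lay between -0.27 and -0.18. Low genes limit what can be seen: 9633 members were too low to test.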
